A study of Mus musculus with 42 samples.

Results

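The transcripts described here belong to 7 genes of extracellular adenosine signalling in mouse uterine natural killer (NK) cells, chosen by name. They were the adenosine receptor genes *Adora2a* and *Adora2b*, the ectoenzyme genes *Entpd1* (CD39), *Nt5e* (CD73) and *Cd38*, the adenosine deaminase gene *Ada*, and *Dpp4* (CD26). All 7 were among the 54353 genes counted in each of 34 bulk RNA-Seq libraries. In the joined single-cell matrix 6 of the 7 were among 35237 genes, and *Entpd1* was not analysed there. *Adora2b* was chosen because its level was high with IL-21 in a 72 h culture and low once a STAT3 inhibitor was added, so its values in that culture are given as a description with no test.

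All cells came from wild-type mice, C57BL/6 where the labels give the strain. The bulk libraries are of sorted uterine tissue-resident NK (trNK) cells, a gate positive for NK1.1, NKp46 and CD49a and negative for CXCR6. A gestation experiment compared trNK cells from virgin mice with those of gestation day (gd) 6.5 and of gd8.5, and a subset experiment compared trNK-V, trNK-D and trNK-T cells of gd8.5, sorted as low, intermediate and high for the surface proteins CD55 and 4-1BB. In the 72 h culture, trNK-V cells from gd6.5 were kept in IL-15 alone, with IL-21 at 20 ng/ml, or with IL-21 and the STAT3 inhibitor Stattic (iSTAT3) at 1 µM by the labels (the study's methods print mM), and live NK1.1+ cells were collected. The time course sampled trNK cells from gd6.5, trNK-V by the study's text, at 0, 6, 24 and 72 h. They were kept in IL-15, 10 ng/ml by the sample labels, with or without IL-21 at 20 ng/ml. Every group, 17 in all, had 2 libraries, and every cultured cell received IL-15. The labels do not say whether the 2 libraries came from separate animals or cultures, so p-values measure only the spread between these libraries. The single-cell matrix pooled sorted NK1.1+NKp46+ cells of virgin and gd8.5 uteri, and no column used here tells the animals apart.

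Extracellular ATP is trimmed to AMP by CD39, and CD73 turns AMP into adenosine. CD38 consumes NAD and can feed the same route. Adenosine is read by G-protein-coupled receptors, of which the products of *Adora2a* and *Adora2b* raise cyclic AMP, a signal known for damping NK cell cytotoxicity. Adenosine deaminase ends the signal by making inosine, and CD26 is a surface peptidase that holds adenosine deaminase at the cell surface in humans.

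The stretch of sequence directly before a gene's start is shown for *Adora2b*, the member with the widest range of levels, and for *Ada*, the member whose stretch holds the letters TTCNNNGAA that STAT factors are known to bind. Both are from RefSeq on GRCm38.p6, 250 bases each, ending at the base before the start, and 6 of the 7 members had an entry. They lie at chr11:62248734-62248983 on the plus strand and chr2:163750240-163750489 on the minus strand.
Adora2b: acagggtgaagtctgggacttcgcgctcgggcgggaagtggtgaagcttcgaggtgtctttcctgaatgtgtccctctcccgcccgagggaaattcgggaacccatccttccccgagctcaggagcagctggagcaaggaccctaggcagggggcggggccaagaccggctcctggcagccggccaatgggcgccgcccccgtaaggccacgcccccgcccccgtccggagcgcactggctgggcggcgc
Ada: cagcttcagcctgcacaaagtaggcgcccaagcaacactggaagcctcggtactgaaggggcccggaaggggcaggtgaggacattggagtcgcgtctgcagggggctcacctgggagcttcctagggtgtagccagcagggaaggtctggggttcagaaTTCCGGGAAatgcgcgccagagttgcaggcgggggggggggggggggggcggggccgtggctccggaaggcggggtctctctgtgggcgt
Capitals mark TTCNNNGAA, which reads the same on both strands, and the *Ada* stretch holds it once. These letters are not in the *Adora2b* window, nor in the windows of *Nt5e*, *Entpd1*, *Cd38* and *Dpp4*. Among 32851 promoters of the same length, 7.02% hold TTCNNNGAA. The cyclic AMP element TGACGTCA, also the same on both strands and held by 1.55% of promoters, was in none of the members' windows. *Adora2b* (chromosome 11, 62248984 to 62266453, mm10, plus strand) has 1845 bases of exon in the deposited counts and shares none with another gene.

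Total counts ran from 11862089 to 66468883 per library. The NK receptor gene *Ncr1* was at 46.8 to 1030 RPKM (counts scaled to exon length and library total) in the 34 libraries. The endothelial genes *Kdr*, *Cdh5* and *Tek* were under 1 RPKM in all of them. With *Pecam1*, its remaining gene, the endothelial marker list summed to at most 50.15 RPKM, in replicate 2 of IL-15 alone in the 72 h culture. Genes of other cells reached up to 200 RPKM for the erythroid *Hbb-bs* (under 1 RPKM in 30 of 34 libraries), 17 for the stromal *Col1a1* (32 of 34), 6.42 for the T cell *Cd3e* (29 of 34) and 4.02 for the macrophage *C1qa* (30 of 34). The erythroid marker list summed to at most 840 RPKM, in replicate 2 of gd8.5. The T cell list reached 293.4 RPKM, in virgin replicate 1, and the neutrophil and monocyte list 238.5 RPKM, in replicate 1 of trNK-D. *Cd3e* and *Cd4* of the first list were under 1 RPKM in every gestation library. *S100a8*, *S100a9*, *Retnlg* and *Csf3r* of the second, all but *Ly6c2*, were under 1 RPKM in every subset library. Macrophage, epithelial and stromal lists reached 71.85 RPKM (24 h without IL-21, replicate 2), 57.98 RPKM (trNK-T, replicate 2) and 51.9 RPKM (trNK-V, replicate 1). Of the 7 macrophage markers, all but *Cd68* were under 1 RPKM in every time-course library. The conventional NK list reached 5818 RPKM, in replicate 2 of 72 h without IL-21. *S1pr5*, *Cx3cr1* and *Klf2* of that list were under 1 RPKM in every time-course library. The list of type 1 innate lymphoid cells reached 684.7 RPKM, in replicate 1 of 72 h with IL-21. Of the 4 libraries of 72 h in the time course, 3 stood apart, both without IL-21 and replicate 2 with it. The pair without IL-21 had 8919 and 8488 genes with at least 10 counts and took 8.44% and 11.8% of counts from mitochondrial genes, and the pair with IL-21 had 11685 and 9588 such genes. Replicate 1 with IL-21, at 11685, was within the range of the rest. The other 30 libraries had 11513 to 13636 such genes and 0.861% to 5.42% of mitochondrial counts. The glycolytic gene *Gapdh*, used by every cell, was at 11.2 and 7.56 RPKM in the pair without IL-21 and at 68.1 and 10.8 RPKM in the pair with it.

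*Adora2b* encodes the low-affinity adenosine receptor. In these bulk samples, fewer cells expressing a gene and less of its RNA per cell cannot be told apart. In the 72 h culture it was at 2.64 and 0 RPKM in IL-15 alone, at 58.3 and 152 RPKM with IL-21, and at 0.0184 and 2.77 RPKM with IL-21 and Stattic. Both IL-21 libraries lay above the 4 others of that culture, which overlapped each other. These are the values that put the gene on the list. In the same culture the summed trNK markers (*Itga1*, *Eomes*, *Ncr1* and *Klrb1c*) were lowest in replicate 1 with Stattic, at 227.7 RPKM. They were highest in replicate 1 of IL-15 alone, at 1099 RPKM. The part of this difference in the levels with Stattic was not tested.

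The time course used other libraries, so *Adora2b* was tested there, although the members were chosen with earlier results of these data known. *Adora2b* was at 0.252 and 2.31 RPKM at 0 h, and at 2.11 and 3.58 RPKM in the 0 h libraries labelled with IL-21. At 6 h it was at 3.51 and 2.07 RPKM without IL-21 and at 59.5 and 69.1 RPKM with it. At 24 h the libraries without IL-21 were at 2.07 and 0.177 RPKM and those with it at 24.4 and 14.9 RPKM. At 72 h both libraries without IL-21 had no read of the gene, and those with it were at 18.8 and 6.48 RPKM. At each of 6, 24 and 72 h the groups did not overlap, and the level with IL-21 was highest at 6 h.

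**Figure D1:**
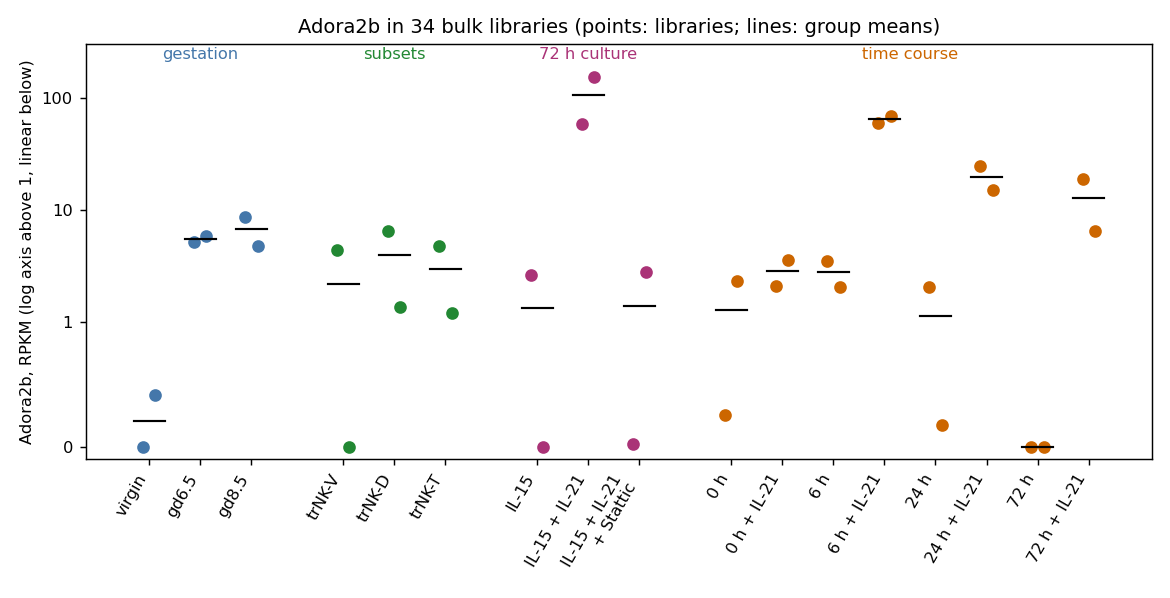
*Adora2b* level in RPKM (vertical axis, linear below 1 and logarithmic above) in the 17 bulk groups (horizontal axis, coloured by experiment). Points are the 2 libraries of a group and black lines their mean. The 8 libraries given IL-21 for 6 h or longer without Stattic lie between 6.48 and 152 RPKM and the 26 others between 0 and 8.67 RPKM.

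Calls here require a fold above 2 and an adjusted p under 0.05 in edgeR's quasi-likelihood test, with Benjamini-Hochberg adjustment over every gene tested. The IL-21 effect on *Adora2b* was a log2 fold change of 4.53 ± 1.18 (SE) at 6 h (adjusted p = 0.39) and of 4.02 ± 1.15 at 24 h (adjusted p = 0.592), neither called. Leaving out 1 library moved the 24 h value to between 3.14, without replicate 2 lacking IL-21, and 6.64, without replicate 1 lacking it. At 6 h none of the 7 members tested was called, against 0.0672% of 14879 genes, with 1 member under an unadjusted p of 0.05 (4.5% of genes), and DESeq2 (1.28% of genes called) and limma voom (0.423%) each called 1. That member was *Adora2b*, with adjusted p = 0.00126 by DESeq2 and 0.00633 by limma voom. At 24 h none of the 7 was called, against 0.00672% of genes, with *Adora2b* again the 1 member under an unadjusted p of 0.05 (5.17% of genes), called by DESeq2 (adjusted p = 0.00896, 1.38% of genes called) and not by limma voom (adjusted p = 0.136). Leaving the 72 h libraries out of the fit, a setting added after the data were seen, gave 4.51 at 6 h (adjusted p = 0.0975) and 4.05 at 24 h (adjusted p = 0.128).

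At 72 h the pooled level with IL-21 was at least 579-fold above that of 3 counts over both libraries without IL-21. With IL-21 replicate 1 or 2 alone the bound was 812.6-fold or 279.7-fold. It covers counting error only, and the libraries without IL-21 are those that stood apart in gene number and mitochondrial counts. The edgeR test called the 72 h difference (adjusted p = 0.0042), although a fit of only the 4 libraries of 72 h did not (adjusted p = 0.905). An exact two-sided permutation of the IL-21 labels within 6, 24 and 72 h, added after the data were seen, gave p = 0.00926, the smallest its 216 arrangements allow, for a mean difference of 3.71 on the log2(RPKM + 1) scale, with the 6 libraries with IL-21 each above those without at their time. With 6 and 24 h alone the difference was 3.77 and the exact permutation p = 0.0556, which is again the smallest that design allows. The groups were already seen not to overlap at each time when the permutation was added. It could therefore return only these smallest values, and it adds nothing to the levels given above. The difference between the IL-21 effects at 24 h and 6 h was -0.51 ± 1.45 (adjusted p = 1), and between those at 72 h and 24 h it was 9.01 ± 2.42 (adjusted p = 0.0982), where the 72 h control is the pair of libraries with no read.

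*Bcl3*, a nuclear IκB family member and STAT3 target, is given as a reference for the cytokine response. It was at 0.231 and 0.498 RPKM at 6 h without IL-21 and at 11.9 and 23.6 RPKM with it, and at 4.13 and 2.9 RPKM in the 72 h culture in IL-15 against 24.3 and 36.4 RPKM with IL-21. Its groups did not overlap, but edgeR called it at neither place (adjusted p = 0.807 and 0.264). *Socs3*, the feedback inhibitor of STAT3, was under 1 RPKM in all 16 time-course libraries. In the 72 h culture it was at 1.44 and 6.66 RPKM in IL-15, 4.51 and 28.2 RPKM with IL-21 and 2.19 and 3.75 RPKM with Stattic added, so these groups overlapped, and it was at 0.408 to 21.1 RPKM in the libraries from uteri.

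In the uterus *Adora2b* was at 0 and 0.417 RPKM in virgin trNK cells, at 5.16 and 5.84 RPKM at gd6.5 and at 8.67 and 4.75 RPKM at gd8.5. All 4 libraries of pregnant mice lay above both virgin libraries. The log2 fold change was 4.66 ± 1.32 at gd6.5 (adjusted p = 0.16) and 4.98 ± 1.33 at gd8.5 (adjusted p = 0.365), and edgeR called neither, while DESeq2 called both (adjusted p = 0.00161 and 0.00154, with 5.91% and 2.41% of genes called). The calls turned on the virgin pair. Without virgin replicate 2, which leaves a single virgin library with no *Adora2b* read, edgeR called both (log2 fold changes of 10.64 and 10.95, adjusted p = 0.0103 and 0.0153). Without virgin replicate 1 it called neither (3.60 and 3.91, adjusted p = 0.0514 and 0.114), nor without any 1 library of pregnancy (adjusted p from 0.444 to 0.81).

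Among the subsets of gd8.5 the replicates of *Adora2b* disagreed. It was at 4.36 and 0 RPKM in trNK-V, 6.52 and 1.35 RPKM in trNK-D and 4.71 and 1.19 RPKM in trNK-T, so the subsets overlapped. Replicate 1 was above replicate 2 in each subset, and within each replicate trNK-V was lowest and trNK-D highest. *Cd209a*, a lectin gene of myeloid cells, was at 70 and 147 RPKM in replicate 1 of trNK-V and trNK-D and under 1 RPKM in the other 32 libraries, while *Mgl2*, another lectin gene of myeloid cells, was at most 0.817 RPKM in all 34. The part of *Cd209a* in these *Adora2b* values was not tested.

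Ordered by mean level over the 17 groups, *Adora2b* ran from 105 RPKM in the 72 h culture with IL-21, through 64.3, 19.6 and 12.6 RPKM with IL-21 at 6, 24 and 72 h, to 6.71 RPKM at gd8.5 and 0 RPKM at 72 h without IL-21. Of 16 neighbouring pairs in that order, 15 had overlapping library ranges, and only the step from 64.3 to 19.6 RPKM was clear of overlap. The experiments were amplified with different kits, so levels across them are side by side and not tested.

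The genes most like *Adora2b* over the 17 group means were *Gadd45g*, *Gm34342*, *Ehd1*, *Cebpd* and *Il10*, each at a Pearson correlation of 0.88 of log2(RPKM + 1) centred within experiments, out of 12741 genes. These are descriptions with no p, and the points share libraries and experiments. They include the 72 h culture on which *Adora2b* was chosen, so genes that moved like it there were favoured. Over the 34 single libraries the correlations were 0.79, 0.73, 0.73, 0.61 and 0.82 in the same order of genes. *Il10*, the gene of the cytokine interleukin-10, was at 105 and 79 RPKM in the 72 h culture with IL-21, at 0 and 1.35 RPKM once Stattic was added, and in the time course with IL-21 at 18 and 22 RPKM at 6 h, 2.29 and 1.17 RPKM at 24 h and 1.06 and 0 RPKM at 72 h. It was at 0 in both IL-15 libraries of the 72 h culture and under 1 RPKM in all 12 libraries from uteri.

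*Adora2a*, the high-affinity receptor gene, fell across trNK subsets. It was at 6.77 and 4.09 RPKM in trNK-V, at 3.69 and 2.75 RPKM in trNK-D and at 0.13 and 0.303 RPKM in trNK-T, from 320 and 176 counts down to 6 and 11. The 3 subsets did not overlap. The conventional NK marker list also ran from a highest sum of 2431 RPKM in trNK-V replicate 2 to a lowest of 315.7 RPKM in trNK-T replicate 1. The list of type 1 innate lymphoid cells ran from 182.2 to 1.405 RPKM in the same libraries. The trNK marker list itself ran from 1388 RPKM in trNK-V replicate 2 to 644.4 RPKM in trNK-T replicate 2. The virginal trNK list ran from 254.5 to 40.63 RPKM in that pair. The part of conventional NK cells or type 1 innate lymphoid cells in the *Adora2a* values was not tested. From trNK-V to trNK-T the *Adora2a* log2 fold change was -4.45 ± 0.71 (edgeR adjusted p = 0.0209), and it was the 1 of 7 members called, against 6.75% of 14335 genes. DESeq2 called 2 members, *Adora2a* and *Entpd1*, with 14.7% of genes. Limma voom did not call it (adjusted p = 0.0614), and leaving out any 1 of the 4 libraries gave adjusted p from 0.0501 to 0.119 with log2 fold changes from -5.20 to -3.94.

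Against trNK-D the fall of *Adora2a* in trNK-T was -3.81 ± 0.69 (adjusted p = 0.164). None of the 7 members was called by edgeR in trNK-T against trNK-D (0.0767% of genes were), 2 had an unadjusted p under 0.05 (*Adora2a* and *Cd38*, against 11.5% of genes), DESeq2 called *Adora2a* (adjusted p = 3.18e-05, with 3.13% of genes called), and limma voom called 0. In trNK-D against trNK-V none was called (0.00698% of genes were), 1 had an unadjusted p under 0.05 (*Entpd1*, against 12.3% of genes), and DESeq2 and limma voom called 0.

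By gestation, *Adora2a* was at 6 and 6.63 RPKM in virgin trNK cells, 1.26 and 3.12 RPKM at gd6.5 and 3.16 and 1.51 RPKM at gd8.5. Every virgin library was above every library of pregnancy, the opposite order to *Adora2b*. The log2 fold changes of -1.58 ± 0.58 at gd6.5 (adjusted p = 0.237) and -1.45 ± 0.58 at gd8.5 (adjusted p = 0.475) were not called. In culture *Adora2a* stayed at 1.6 RPKM or less in 21 of 22 libraries, the exception being 1 of the 72 h libraries with IL-21 at 3.08 RPKM, whose partner was at 0.229 RPKM.

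**Figure D2:**
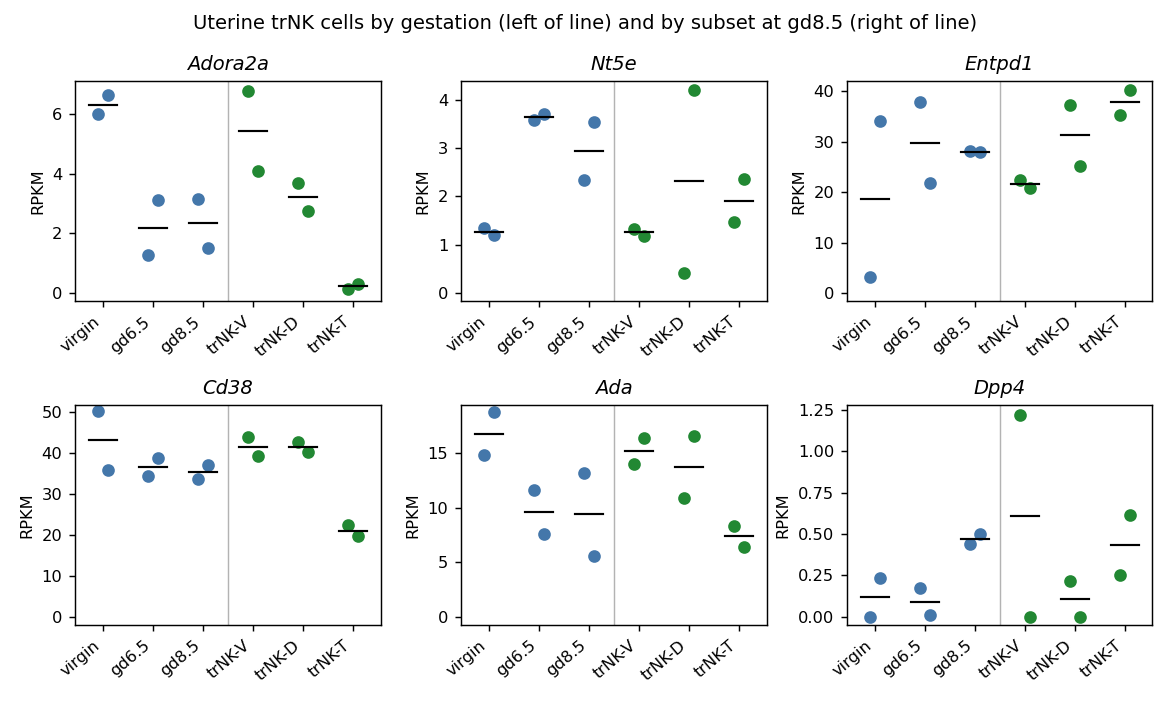
Levels in RPKM (vertical axes, each from 0) of 6 members in trNK cells by gestation (virgin, gd6.5, gd8.5) and in the trNK-V, trNK-D and trNK-T subsets of gd8.5 (horizontal axes). Points are libraries and lines the mean of 2. *Adora2a* steps down from 6.77 and 4.09 RPKM in trNK-V to 0.13 and 0.303 RPKM in trNK-T, *Cd38* is lower in trNK-T, and *Dpp4* exceeds 1 RPKM in 1 library.

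*Entpd1*, whose product starts the breakdown of ATP, was among the more abundant members in the uterus. It was at 22.4 and 20.8 RPKM in trNK-V, 37.3 and 25.2 RPKM in trNK-D and 35.4 and 40.2 RPKM in trNK-T. The trNK-V libraries lay under the 4 others. From trNK-V to trNK-T the log2 fold change was 1.00 ± 0.21 (adjusted p = 0.0394), a fold of 1.99 that falls just short of the fold of 2 needed for a call. DESeq2 put it just past that fold and called it (adjusted p = 0.000373).

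In the gestation experiment *Entpd1* depended on the library. The virgin libraries were at 3.16 and 34.2 RPKM, gd6.5 at 37.8 and 21.8 RPKM and gd8.5 at 28.2 and 27.9 RPKM, so virgin and pregnant groups overlapped. The same virgin pair differed in the terminal trNK marker list, whose summed level was 529 RPKM in replicate 1 and 6769 RPKM in replicate 2. These were the lowest and the highest sums of the gestation experiment, so virgin replicate 2 held more than any library of pregnancy. The comparisons of the other members with virgin cells use the same pair. The part of this difference in the *Entpd1* values or in theirs was not tested. In the 72 h culture *Entpd1* was at 12.8 and 16.2 RPKM in IL-15, 18 and 19 RPKM with IL-21 and 21.3 and 31.6 RPKM with Stattic, without overlap between any 2 groups. Between IL-15 alone and IL-21 with Stattic the log2 fold change was 1.23 ± 0.35 (adjusted p = 0.214).

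*Nt5e*, whose product makes adenosine from AMP, was below *Entpd1* per length in each of the 12 libraries from uteri. Virgin trNK cells held 1.34 and 1.19 RPKM, gd6.5 cells 3.59 and 3.71 RPKM and gd8.5 cells 2.33 and 3.54 RPKM. Both pregnant groups were above the virgin one without overlap. The log2 fold change was 1.49 ± 0.32 at gd6.5 (adjusted p = 0.109) and 1.21 ± 0.32 at gd8.5 (adjusted p = 0.362), not called by edgeR and called by DESeq2 (adjusted p = 0.00231 and 0.0437). The subsets overlapped, with 1.33 and 1.18 RPKM in trNK-V, 0.419 and 4.2 RPKM in trNK-D and 1.46 and 2.35 RPKM in trNK-T. In the time course *Nt5e* was lower with IL-21 at 6 h, at 0.671 and 0.466 RPKM against 1.25 and 1.09 RPKM without it. At 24 h it was at 0.311 and 0.175 RPKM with IL-21 against 0.441 and 0.464 RPKM without. Neither pair of groups overlapped and neither difference was called, and the direction was opposite to that at 72 h.

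For the gestation contrasts as a whole, edgeR called none of the 7 members at gd6.5 or gd8.5 against virgin, where 0.0356% of 14040 genes were called each time. In each, 3 members (*Adora2a*, *Adora2b* and *Nt5e*) had an unadjusted p under 0.05, as did 17.2% and 10% of all genes, and DESeq2 called 2 and limma voom 0. For gd8.5 against gd6.5 no member was called by any of these tools or had an unadjusted p under 0.05, and 0% of genes were called.

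*Cd38* is the NAD-consuming ectoenzyme gene. It was at 50.2 and 35.8 RPKM in virgin trNK cells, 34.4 and 38.8 RPKM at gd6.5 and 33.6 and 36.9 RPKM at gd8.5, and the groups overlapped. In the subsets it was at 43.9 and 39.1 RPKM in trNK-V, 42.6 and 40.2 RPKM in trNK-D and 22.3 and 19.7 RPKM in trNK-T. The trNK-T libraries lay clear of the other 4. The log2 fold change from trNK-V to trNK-T was -0.79 ± 0.16 (adjusted p = 0.0359), a fold of 1.73, which passes the p threshold and not the fold threshold.

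With IL-21 in the 72 h culture, *Cd38* was at 49.1 and 63.6 RPKM, against 17.7 and 22 RPKM in IL-15 alone and 24.3 and 34.2 RPKM with Stattic added. The 3 groups did not overlap, and the Stattic libraries lay between the others. The log2 fold change for IL-21 was 1.75 ± 0.34 (unadjusted p = 0.00134, edgeR adjusted p = 0.346), and for Stattic against IL-21 it was -0.82 ± 0.33 (adjusted p = 0.375). DESeq2 called the first (adjusted p = 0.000346, with 1.4% of genes called). In the time course *Cd38* was at 15.6 and 12.4 RPKM at 6 h without IL-21 and 18 and 30.7 RPKM with it. At 24 h the groups overlapped, at 19.2 and 13.4 RPKM without IL-21 and 23.4 and 17 RPKM with it. The 72 h libraries without IL-21 disagreed, at 33.9 and 0 RPKM, and those with it were at 85.1 and 23.5 RPKM.

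Of the 5 members tested in the 72 h culture besides *Adora2b*, edgeR called none for IL-21 against IL-15 alone (0% of 13647 genes were called), none for Stattic against IL-21 (0.00733%) and none for Stattic against IL-15 alone (0.154%). Unadjusted p was under 0.05 for 1, 1 and 3 members and for 5.2%, 12.7% and 14.6% of all genes. DESeq2 called 1, 0 and 1 (the last *Entpd1*, with 7.38% of genes called), and limma voom called 0 each time. *Dpp4* was not tested there because its counts were too low.

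**Figure D3:**
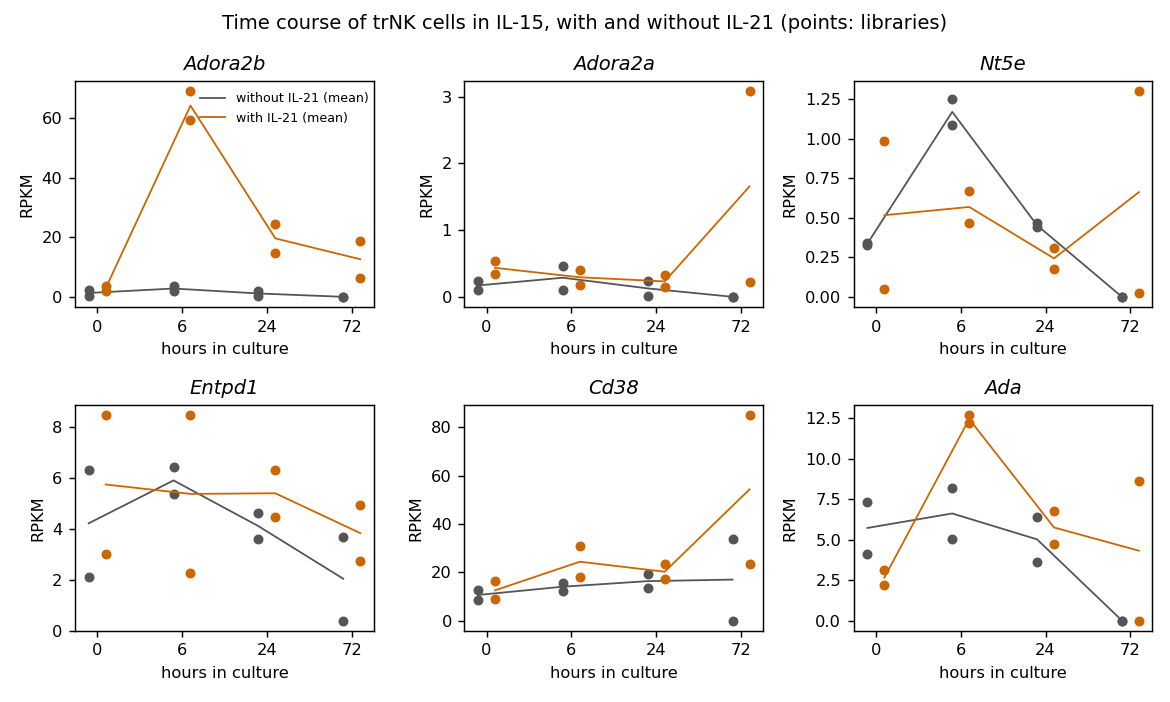
Levels in RPKM (vertical axes) of 6 members at 0, 6, 24 and 72 h in culture (horizontal axes, evenly spaced) with IL-21 (orange) and without it (grey). Points are libraries and lines join the means of 2. With IL-21, *Adora2b* peaks at 6 h, at 59.5 and 69.1 RPKM, and without IL-21 *Adora2a*, *Adora2b*, *Nt5e* and *Ada* are at 0 in both 72 h libraries.

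*Ada*, the gene of the enzyme that removes adenosine, was at 14.8 and 18.8 RPKM in virgin trNK cells, 11.6 and 7.57 RPKM at gd6.5 and 13.2 and 5.57 RPKM at gd8.5. Both virgin libraries were above all 4 of pregnancy, with log2 fold changes of -0.85 ± 0.47 and -0.87 ± 0.47 that were not called (adjusted p = 0.41 and 0.573). It was at 14 and 16.4 RPKM in trNK-V, 10.9 and 16.6 RPKM in trNK-D and 8.35 and 6.44 RPKM in trNK-T, where the log2 fold change against trNK-V was -0.85 ± 0.36 (adjusted p = 0.186). In the time course *Ada* was at 7.33 and 4.11 RPKM at 0 h, and lower, at 3.1 and 2.2 RPKM, in the 0 h libraries labelled with IL-21. At 6 h it was at 8.19 and 5.04 RPKM without IL-21 and at 12.7 and 12.2 RPKM with it, not called (log2 fold change 0.92, edgeR adjusted p = 1). At 24 h the groups overlapped, at 3.61 and 6.42 RPKM without IL-21 and 6.79 and 4.71 RPKM with it. The 0 h and 6 h groups thus differed in opposite directions, each without overlap. In the 72 h culture *Ada* was at 5.93 and 9.68 RPKM in IL-15, 9.3 and 9.71 RPKM with IL-21 and 5.01 and 0 RPKM with Stattic added, and the first 2 groups overlapped.

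*Dpp4* was at 0 in 20 of the 34 libraries and above 1 RPKM in 1, replicate 1 of trNK-V at 1.22 RPKM. That library also held *Cd209a* at 70 RPKM. No change in *Dpp4* could be read at these counts. Its exons share 232 bases with *Gm13561* on the opposite strand, which had no read in any library, and the other 6 members overlap no other gene.

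The 72 h libraries without IL-21 held no read of *Adora2a*, *Adora2b*, *Nt5e* or *Ada*. EdgeR called these 4 of 7 members higher with IL-21 at 72 h, against 5.07% of genes called in either direction. A fit of only the 4 libraries compared called none (adjusted p = 0.905 for each), and the fit with the replicate block called *Adora2b* alone (adjusted p = 0.0595 for *Adora2a*, 0.052 for *Nt5e* and 0.0689 for *Ada*). DESeq2 also called 4 (14.8% of genes), and limma voom called 2 (5.07% of genes). Against 3 counts over both control libraries, the pooled levels were at least 131-fold higher for *Adora2a*, 149-fold for *Nt5e* and 227-fold for *Ada*. All 3 rested mainly on IL-21 replicate 1, which with replicate 2 was at 3.08 and 0.229 RPKM for *Adora2a*, 1.3 and 0.0244 RPKM for *Nt5e* and 8.63 and 0 RPKM for *Ada*. Without IL-21 replicate 1 of 72 h, or without replicate 2 of the pair lacking IL-21, *Adora2b* alone was called, and without the former the *Adora2a* log2 fold change went from 10.72 to 8.39, the *Nt5e* log2 fold change went from 10.86 to 6.66 and the *Ada* log2 fold change went from 11.45 to 0.00. These absences move with the low gene number and low *Gapdh* of the same libraries, and the part of library quality in them was not tested.

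From 24 h to 72 h without IL-21, edgeR called 3 of 7 members lower (*Adora2b*, *Nt5e* and *Ada*), against 7.68% of genes called, and DESeq2 called 4 (17.4% of genes) and limma voom 3 (10.7%). The median over all genes was itself -0.14 on the log2 scale. Taking 3 counts over both 72 h libraries, the fall was at least 41.6-fold for *Adora2b*, 91.5-fold for *Nt5e* and 246-fold for *Ada*. The *Adora2b* bound rests on replicate 1 of 24 h, at 2.07 RPKM against 0.177 RPKM in replicate 2, and with replicate 2 alone it is 7.64-fold (log2 fold change of -6.87 instead of -9.47 in the fit without replicate 1). Leaving out replicate 1 of 24 h or replicate 2 of 72 h left none of these 3 called (adjusted p from 0.0546 to 0.0853), and leaving out replicate 2 of 24 h left *Adora2b* alone (adjusted p = 0.00734). For 6 h against 0 h and 24 h against 6 h without IL-21, no member was called by edgeR, DESeq2 or limma voom or had an unadjusted p under 0.05, and 0% of genes were called in both. The IL-21 effects at 24 h and 6 h differed for no member (0% of genes called, no member at an unadjusted p under 0.05, none by DESeq2 or limma voom). Those at 72 h and 24 h differed for no member by edgeR or limma voom (2.43% of genes called), with 4 at an unadjusted p under 0.05 (14.3% of genes) and called by DESeq2 (8.71%), where the median over all genes was 0.17.

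The wider pathway was followed through 6 lists holding 77 genes in all, the members included. In trNK-T against trNK-V, *Adora2a* was the 1 of 3 tested receptor genes called, and *Adora1* and *Adora3*, the other adenosine receptor genes, reached at most 0.0178 and 1.21 RPKM in any library. Of the ectonucleotidase and NAD enzyme genes, 1 of 5 tested was called higher, *Bst1*, a relative of *Cd38*, at 0 in both trNK-V libraries and 3.96 and 3.13 RPKM in trNK-T. Of the removal and transport genes, 2 of 9 tested rose and 1 fell, where 6.75% of all genes tested were called. *Ahcy*, which splits S-adenosylhomocysteine into adenosine and homocysteine, rose by a log2 fold change of 2.45 ± 0.44 (adjusted p = 0.0265). *Pnp*, which acts on inosine after *Ada*, rose by 1.52 ± 0.22 (adjusted p = 0.0169), and *Slc28a2*, a nucleoside importer, changed by -1.11 ± 0.25 (adjusted p = 0.047).

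In the same comparison 1 of 11 tested ATP release and receptor genes was called, the UDP-sugar receptor gene *P2ry14*, higher by 1.35 ± 0.20 (adjusted p = 0.018). Of the cyclic AMP genes, 2 of 20 tested were called, both lower. Over the 6 lists, 8 of 58 genes tested were called, beside 6.75% of all genes. *Adcy7*, an adenylyl cyclase, was at 56.5 and 73.3 RPKM in trNK-V and 16.4 and 16.4 RPKM in trNK-T (-1.80 ± 0.22, adjusted p = 0.014), and *Pde7a*, a phosphodiesterase that degrades cyclic AMP, was at 7.02 and 6.94 RPKM and 1.98 and 1.29 RPKM (-1.91 ± 0.35, adjusted p = 0.0299). None of the AMP and IMP pool genes was called. The list medians, 0.61 for receptors, 0.80 for ectoenzymes, 1.00 for removal and transport, -0.24 for ATP release and receptors, -0.27 for cyclic AMP and 0.32 for the AMP and IMP pool, stood beside a median of -0.05 over all genes tested.

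In the other uterine and 72 h culture contrasts, and for IL-21 at 6 h and 24 h, edgeR called no gene of the 6 lists. At 72 h with IL-21, 8 of 57 list genes tested were called higher and 0 lower, beside 5.07% of all genes. Those besides the members included *Ahcy* and *Abcc1* and *Panx1*, a transporter and a membrane channel gene. *Panx1* was at 0.0116 and 0.0319 RPKM without IL-21 and 0.979 and 0.343 RPKM with it, so this list call also rests on the pair of libraries that stood apart. From 24 h to 72 h without IL-21, 8 of the 57 were called lower and 1 higher, beside 7.68% of all genes.

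Single cells showed in which cell classes the members were read. Of 15175 cells, 8907 had 200 to 2500 genes and under 10% mitochondrial counts. They formed 18 clusters without using the members, 14 of which matched a marker list and were named after it. Levels are CPM, the unique molecular identifiers (UMIs) of a gene summed over a class and scaled to 1000000 in that class, with exact 95% Poisson intervals that cover counting error only. The cells come from 2 pooled samples that could not be told apart here, so nothing was tested between classes. No doublets were removed.

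*Adora2a* was at 97.5 CPM (83.9 to 113) in 1013 conventional NK-like (cNK-like) cells, 45.7 (39.8 to 52.1) in 1590 virginal trNK-like cells and 10.1 (8.17 to 12.4) in 1863 terminal trNK-like cells. From virginal to terminal cells it was lower by 4.52-fold, and *Ptprc*, the gene of the leukocyte antigen CD45, by 3.19-fold. Macrophage-like cells were at 6.13 CPM (3.57 to 9.82) and stromal-like cells at 5.30 (1.09 to 15.5). An unnamed cluster of 396 cells, led by *Cxcr6*, *Tcrg-C4*, *Tcrg-C1*, *Tcrg-C2* and *Cd3e*, was at 54.1 CPM (39.9 to 71.7). Its leading genes hold more T-cell receptor and CD3 genes than markers of innate lymphoid cells, so it has no name. It also held *Ncr1* at 687.8, *Klrb1c* at 630.3 and *Itga1* at 330.4 CPM, where T-like cells held *Ncr1* at 88.3 CPM. Its *Eomes* level was 110.5 CPM, against 409.5 CPM in virginal trNK-like cells. Another unnamed cluster of 74 cells, led by *Ccl22*, *Fscn1* and *Ccr7*, was at 146 CPM (96.9 to 211).

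*Adora2b* was scarce in every NK class, at 3.70 CPM (2.19 to 5.85) in virginal trNK-like, 2.04 (1.23 to 3.19) in terminal trNK-like and 1.05 (0.128 to 3.81) in cNK-like cells, with overlapping intervals. It was at 28.8 CPM (20.9 to 38.6), from 44 UMIs, in an unnamed cluster of 622 cells led by *Cd209a*, *Slfn4* and *Mgl2*. The macrophage-like class was at 2.53 CPM, from 7 UMIs.

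**Figure D4:**
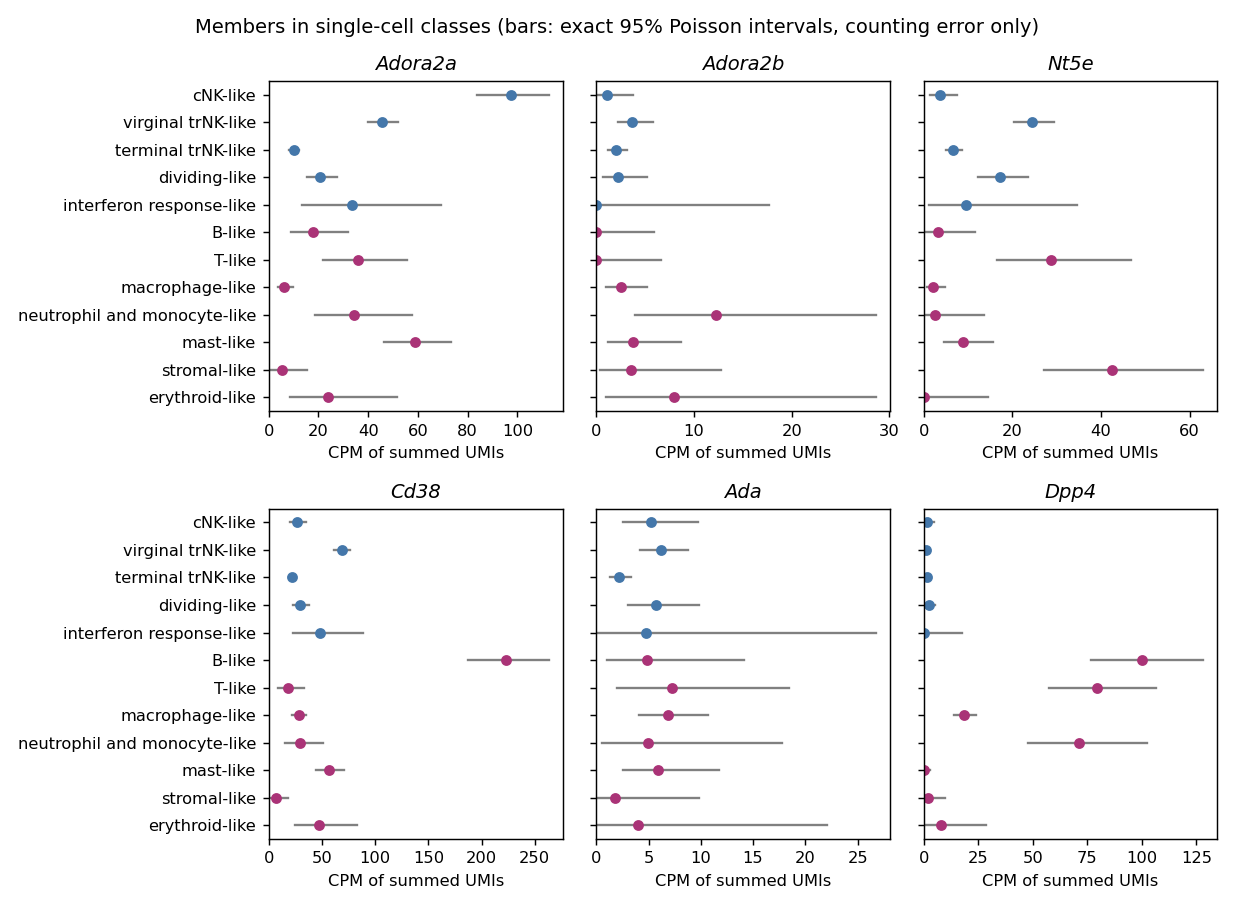
Levels in CPM of summed UMIs (horizontal axes, each on its own scale) of the 6 members in 12 single-cell classes (vertical axis), NK, dividing and interferon-response classes in blue and others in magenta. The mast-like class, in magenta, also held NK genes. Grey bars are exact 95% Poisson intervals. *Adora2a* is highest in cNK-like cells at 97.5 CPM, *Cd38* in B-like cells at 223 CPM, and *Dpp4* in B-like, T-like and neutrophil and monocyte-like cells.

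*Nt5e* was at 24.5 CPM (20.3 to 29.3) in virginal trNK-like, 6.67 (5.11 to 8.54) in terminal trNK-like and 3.69 (1.48 to 7.60) in cNK-like cells. The highest class was stromal-like, at 42.4 CPM (27.2 to 63.1), and the unnamed *Tcrg-C4* cluster was at 37.2 (25.6 to 52.3), with overlapping intervals. The terminal class was made of a pair of clusters, 10.3 CPM (7.75 to 13.3) in the one led by *Gzmf* and *Gzmc* and 1.56 (0.573 to 3.40) in the one led by *Mt2* and *Scin*.

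*Cd38* was at 223 CPM (187 to 263) in B-like, 112 (90.7 to 136) in the unnamed *Tcrg-C4* cluster, 68.9 (61.7 to 76.7) in virginal trNK-like, 26.3 (19.5 to 34.7) in cNK-like and 21.5 (18.6 to 24.7) in terminal trNK-like cells. The terminal level was 3.21-fold below the virginal one. Between the same classes *Ptprc* was lower by 3.19-fold, the NK receptor genes *Klrb1c* and *Ncr1* by 3.14-fold and 2.21-fold, the CD49a gene *Itga1* by 1.64-fold and the NK transcription factor gene *Eomes* by 1.04-fold. *Ada* was at 6.17 CPM (4.16 to 8.81) in virginal and 2.15 (1.31 to 3.32) in terminal trNK-like cells. *Dpp4* was at 1.03 CPM (0.334 to 2.40) and 1.51 (0.823 to 2.52) in these classes but at 100 (76.7 to 128) in B-like, 79.3 (57.6 to 106) in T-like and 73.9 (60.9 to 88.8) in the *Cd209a* cluster. In all, 5 of the 6 members were higher in the virginal than in the terminal trNK-like class, *Dpp4* being the exception, and the *Adora2b* intervals overlapped. Among 13193 genes with at least 10 UMIs in both classes together, 61.9% were higher in the virginal class.

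The classes carried RNA of each other. *Ncr1* was at 1087 CPM in cNK-like and 558 CPM in virginal trNK-like cells and still at 58.8 CPM in macrophage-like and 110 CPM in B-like cells. The 555 mast-like cells held *Ncr1* at 526 CPM beside the mast genes that named them, and their *Adora2a* level of 58.7 CPM moved with that. The part of free RNA or of mixed cells in these levels was not tested.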

How the data were processed

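The deposited bulk files held whole-number read counts per gene. Per the labels, they came from full-length mRNA amplification, alignment with HISAT2 2.1.0 to mm10 and featureCounts (Subread). The authors' single-cell files held UMI counts, 15175 cells in both tables, with no gene shared. Depth, from 11862089 to 66468883 counts, sets the precision, so low members carry wide errors. RPKM was computed from counts and exon lengths. Differences were tested with edgeR 4.0.16 (TMM, quasi-likelihood, filterByExpr with a minimum count of 10), one fit per experiment, and alternatives used DESeq2 1.42.0 and limma 3.58.1. These tools were tried on simulated counts with less spread than any experiment here. The common biological coefficient of variation here was 0.544 to 0.909, so the simulation does not cover this spread. A fold against a group with no read uses 3 counts over that group and covers counting error only. Cells were clustered with scanpy 1.11.5 (2000 variable genes, 20 components, 20 neighbours, Leiden resolution 0.8). Clusters took the list with at least 3 markers enriched and 1 among the top 10 genes, unless T-cell receptor and CD3 genes outnumbered them there, a rule set after the clusters were seen. The members and lists were chosen with earlier results of these data known. Named genes were the members, list genes called (at most 5 per comparison), and the genes nearest to *Adora2b*. ATAC samples were not analysed here. Strand was not stated for the counting, and a time-course protocol gives another IL-15 concentration than the sample labels. Some results on single genes are not reported here.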

Additional observations from a re-analysis of the deposited data

How the results depend on the processing

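With 2 libraries per group, adjusted p-values moved between settings more than fold changes did. Of 183 alternative counts of members called, 143 stayed within 1.5 times the reported one, 24 were higher and 16 lower. The 143 include counts of 0 that stayed at 0. For the counts of all genes called, 62 stayed within 1.5 times, 73 were higher and 48 lower. Of the single-cell results, 126 stayed near the reported one (for levels, within its interval) and 56 moved. DESeq2 called 2 members at gd6.5 and 2 at gd8.5 against virgin, 2 in trNK-T against trNK-V, 1 in trNK-T against trNK-D, 1 for IL-21 in the 72 h culture, 1 for Stattic against IL-15 alone, 1 for IL-21 at 6 h, 1 at 24 h and 4 for its change from 24 h to 72 h. The DESeq2 shares of all genes were 5.91%, 2.41%, 14.7%, 3.13%, 1.4%, 7.38%, 1.28%, 1.38% and 8.71% in the same order. With no filter on low counts the numbers were 2 and 1 by gestation, 1 in trNK-T against trNK-D, 1 for IL-21 in the 72 h culture, 1 at 6 h, 1 at 24 h and 3 for the change from 24 h to 72 h, beside 3.89%, 2.13%, 2.24%, 0.687%, 0.273%, 0.262% and 3.19% of all genes in the same order. Limma voom gave 0 in trNK-T against trNK-V (5.49% of all genes called), 1 for IL-21 at 6 h (0.423%) and 2 at 72 h (5.07%). Keeping genes with RPKM above 10, which tests 3 members per experiment, gave 0 in trNK-T against trNK-V (21.2% of genes called) and 2 for IL-21 at 72 h (8.08%). Fitting only the groups compared gave 2 in trNK-T against trNK-V, 1 for IL-21 at 6 h, 0 at 72 h and 0 for 72 h against 24 h, where 6.45%, 0.0874%, 0% and 0% of all genes were called. Leaving out 1 library gave 0 to 2 members at gd6.5 and 0 to 2 at gd8.5 against virgin, 0 in trNK-T against trNK-V, 1 to 4 for IL-21 at 72 h, 0 to 4 for 72 h against 24 h and 0 to 2 for the change of the IL-21 effect from 24 h to 72 h, beside 0% to 7.73%, 0% to 4.1%, 0.0558% to 3.96%, 5.58% to 16.3%, 4.44% to 19.3% and 0.726% to 12.5% of all genes. For *Ada*, leaving out 1 library gave 0.00 to 12.52 for IL-21 at 72 h and -0.08 to 12.44 for its change from 24 h on the log2 scale, the lowest without IL-21 replicate 1 of 72 h, since the remaining IL-21 library held no read. Over all genes DESeq2 called more than edgeR throughout, for example 830 against 5 at gd6.5 against virgin, 2103 against 968 in trNK-T against trNK-V and 2205 against 755 for IL-21 at 72 h. A lone remaining library was assumed to vary like the other groups. In the fit with the replicate block the number of members called was 1 instead of 4 for IL-21 at 72 h (3.99% of all genes) and within 1.5 times elsewhere. Same-numbered libraries did not deviate together in all pairs of groups (correlations from -0.38 to 0.48), so the number was not taken to pair them. In the subset experiment the correlations were 0.02 to 0.32, with 2 of 3 pairs of groups above 0.1, so pairing is not settled there.

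Of the 5 genes nearest to *Adora2b*, 2 were among the nearest 5 over single libraries. In the single-cell matrix 6 members were higher in virginal than terminal trNK-like cells at a Leiden resolution of 0.4 and 5 with no upper limit on genes. With limits of 200 to 2500 UMIs, which keep 4338 cells, no virginal trNK-like cluster was named and that count has no value.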
